A study of Mus musculus with 12 samples.

Results

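The genes described here are 38 genes of the unfolded protein response and the amino acid stress response, read in mouse liver after low-dose cadmium (LDC) exposure. The members are given by symbol. For each, the probe set annotated to that symbol alone was taken, and where several were, the one with the highest mean over the arrays. A probe set was found for 37 of the 38 genes, and all 37 passed the filter on dim probe sets, among 12820 genes tested and 18193 named on the array. Vldlr-as had no probe set annotated to it and was not analysed here. By role they are 14 endoplasmic reticulum (ER) chaperones and folding enzymes, 5 genes of ER-associated degradation and the translocon, 4 stress sensors and their transcription factors, and 14 ATF4-type genes.

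Livers came from C57BL/6J mice at 30 weeks of age, in 4 groups of 3 arrays each: LDC males, control males, LDC females and control females. LDC mice had 100 nM cadmium chloride in their drinking water for life, starting with the dams 1 week before mating, and control mice had water alone. The labels name the arrays of a group biological replicates but give neither litters nor the hour of sampling. The p-values therefore set each difference against the spread between these mice, which may share a dam, and not against that between litters. Values are MAS5 signals, linear intensities that the authors scaled to a trimmed mean of 500.0 on every array. Differences were tested on the log2 scale with limma, adjusted by the Benjamini-Hochberg method over all 27022 probe sets tested, and called at an adjusted p under 0.05.

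The sex labels were checked first. Xist was at 72.3 to 134 in male livers and 16258 to 18731 in female livers, and no array fell on the wrong side. The 7 hepatocyte markers measured, albumin among them, summed to between 255082 and 311273 on every array. Because whole liver was measured, fewer cells of a type and less RNA per cell cannot be told apart.

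The ER folds secreted and membrane proteins. When unfolded proteins accumulate, the kinase IRE1 alpha (gene Ern1) splices the mRNA of XBP1, the kinase PERK (Eif2ak3) phosphorylates eIF2 alpha, and ATF6 is cut to release a transcription factor. XBP1 and ATF6 act on genes of chaperones and degradation. Phosphorylated eIF2 alpha favours translation of ATF4, which acts on genes of amino acid synthesis, transport and cell stress, and the kinase GCN2 (Eif2ak4) reaches the same step when amino acids run short. Hepatocytes make most plasma proteins and carry a large ER. Splicing, phosphorylation and protein levels are not read by these arrays.

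Textbooks give different promoter motifs for the 2 arms, and these were searched for here because the results set the chaperones against the ATF4-type genes. RefSeq promoter windows on GRCm38.p6, from 250 bases before to 50 bases after the start, were found for 34 of the 38 genes. Manf, Hyou1, Atf6 and Vldlr-as had none. Both strands were searched for the ER stress response element ERSE (CCAAT, any 9 bases, CCACG), for ERSE-II (ATTGG, any 1 base, CCACG), for the unfolded protein response element UPRE (TGACGTG) and for the amino acid element CARE (TTNCATCA). No matches of different motifs overlapped. The ERSE letters stood in 7 of 12 chaperone windows (Hspa5, Hsp90b1, Dnajc3, Pdia6, Calr, Canx and Creld2), in the window of Syvn1 and in no ATF4-type window, against 0.14% of 27025 genes. The CARE letters stood in 4 of 14 ATF4-type windows (Trib3, Chac1, Asns and Nupr1), in that of Herpud1 and in no chaperone window, against 4.51% of all genes. ERSE-II was found in Dnajb11 and Herpud1 (0.04% of genes) and UPRE in Hspa5 (2.22% of genes). A match describes the letters and is not a site of binding.

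Stretches from 6 of these windows follow, each on the gene's own strand, with the matched letters and the bases between their parts in capitals. In Hspa5 the capitals mark UPRE and then ERSE, in Creld2 the ERSE on the opposite strand, in Syvn1 the ERSE, in Herpud1 CARE and then ERSE-II, in Chac1 CARE, and in Asns CARE on the opposite strand. The places are chr2:34771925-34772049 (plus strand) for Hspa5, chr15:88819506-88819550 (plus) for Creld2, chr19:6046516-6046565 (plus) for Syvn1, chr8:94386309-94386393 (plus) for Herpud1, chr2:119351037-119351076 (plus) for Chac1 and chr6:7693210-7693259 (minus) for Asns. All lie before the annotated start, and the Asns stretch ends at the base before it.
Hspa5: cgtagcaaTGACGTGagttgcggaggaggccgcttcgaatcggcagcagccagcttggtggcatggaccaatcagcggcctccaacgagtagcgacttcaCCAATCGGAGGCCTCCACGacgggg
Creld2: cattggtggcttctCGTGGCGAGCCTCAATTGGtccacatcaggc
Syvn1: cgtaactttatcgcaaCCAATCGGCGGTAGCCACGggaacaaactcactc
Herpud1: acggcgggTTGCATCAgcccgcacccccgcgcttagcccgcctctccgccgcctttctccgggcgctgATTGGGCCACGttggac
Chac1: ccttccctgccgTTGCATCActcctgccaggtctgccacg
Asns: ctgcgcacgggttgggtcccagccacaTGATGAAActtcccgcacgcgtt

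The first question was what LDC did to these genes in female livers. Dnajb9, an ER co-chaperone of BiP, was the 1 member called, and it rose 2.07-fold. Its call came against a background of 0.122% of all probe sets called in LDC females. Around it, 13 of the 14 chaperones had a higher mean log2 signal in LDC females, with a median difference of 0.45, against 0.01 over all probe sets. The ATF4-type genes split evenly, 7 higher and 7 lower, with a median of -0.01.

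The Dnajb9 signal was 8199, 6908 and 11472 in LDC females, against 3951, 4589 and 4057 in control females. The groups did not overlap, and each LDC female stood above all other arrays of the study, males included. The log2 difference was 1.05 (SE 0.17, limma adjusted p = 0.0221). The call depended on single arrays: the adjusted p was 0.0569 without control female 1, 0.066 without control female 3, 0.0517 without LDC female 1 and 0.0806 without LDC female 3. It was 0.121 with each sex fitted on its own arrays and 0.22 with variances moderated without a trend.

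Among all probe sets, 7.16% had all 3 LDC females above all 3 control females and 6.71% had them all below. Of the chaperones, 7 of 14 stood wholly above and none wholly below: Hspa5, Hsp90b1, Dnajb9, Dnajc3, Creld2, Manf and Hyou1. An unadjusted p under 0.05 was reached by 7 chaperones, all higher, where 4.69% of all probe sets reached it higher and 4.33% lower. Apart from Dnajb9 none of them passed the adjusted threshold. The members were chosen with earlier results of these data known, and the chaperones varied together between arrays. These counts were therefore not tested against the shares of all probe sets, and nothing is read from the excess. The same holds for the counts of members set beside such shares below.

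Manf, a secreted factor of the ER lumen, read 11795, 10743 and 13518 in LDC females, against 4849, 4912 and 8288 in control females. Its log2 difference was 1.04 (SE 0.24, adjusted p = 0.144). Hyou1, a large ER chaperone that also exchanges nucleotide on BiP, read 3118, 2973 and 3443 in LDC females, against 1432, 1424 and 2382 in control females, a log2 difference of 0.91 (SE 0.20, adjusted p = 0.137). In both genes control female 3 stood nearest to the LDC arrays, and without it the adjusted p of Hyou1 was 0.032.

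Creld2, an ER protein known as a target of ER stress, read 3136, 2603 and 5328 in LDC females, against 1113, 982 and 1990 in control females. Its log2 difference of 1.44 was the highest of the chaperones and the most uncertain (SE 0.41, adjusted p = 0.257). Hspa5, which encodes BiP, the main ER chaperone and a brake on all 3 sensors, read 24207, 24829 and 28778 in LDC females, against 13872, 16386 and 22964 in control females (log2 difference 0.58, SE 0.17, adjusted p = 0.283).

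The lectin chaperones and disulfide isomerases differed little. Calr, calreticulin, was the 1 chaperone with a lower mean in LDC females (log2 difference -0.12, adjusted p = 0.738). Canx, calnexin, differed by 0.03, Pdia6 by 0.02, Pdia3 by 0.11 and Pdia4 by 0.17, with adjusted p from 0.831 to 0.981. For Canx the 95% interval of the difference ran from -0.15 to 0.22. Between these and the genes above lay Hsp90b1 (0.30), Dnajc3 (0.35), Sdf2l1 (0.54) and Dnajb11 (0.63), none of them called. The chaperones with the ERSE letters ranged from -0.12 to 1.44 (median 0.30, 7 genes) and those with a window but without the letters from 0.11 to 1.05 (median 0.54, 5 genes), so both sets spanned most of the range.

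Of the degradation genes, 4 of 5 were higher in LDC females at an unadjusted p under 0.05, and none was called. Herpud1, which organises the degradation complex at the ER membrane, read 10828, 10744 and 16765 in LDC females, against 7466, 9136 and 6854 in control females (log2 difference 0.69, SE 0.16, adjusted p = 0.147). Its other tested probe set gave 0.73. Syvn1, the ubiquitin ligase of that complex, differed by 0.87, its partner Sel1l by 0.47 and Edem1, which hands over misfolded glycoproteins, by 0.24. Sec61b, a subunit of the translocon, differed by -0.08.

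Of the sensors, Eif2ak3 read 1014, 984 and 1316 in LDC females, against 762, 689 and 603 in control females. Those groups did not overlap, and the log2 difference was 0.68 (SE 0.16, adjusted p = 0.155). Xbp1 (0.12), Ern1 (0.01) and Atf6 (-0.10) differed by less than their standard errors.

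**Figure D1:**
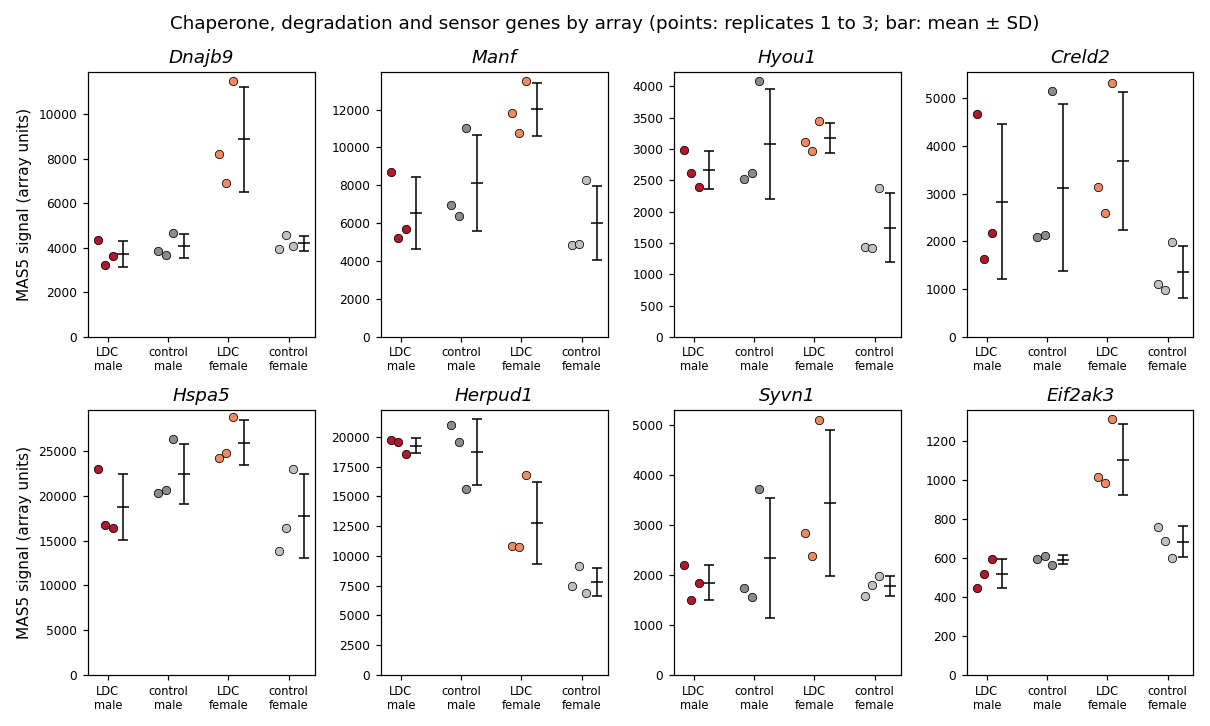
MAS5 signal (linear, array units) of 8 genes of the chaperone, degradation and sensor roles on each of the 12 arrays, with group means ± SD (n = 3). Dnajb9 and Eif2ak3 stand highest in the 3 LDC females, and control male 3 is the highest male array for Manf, Hyou1, Creld2, Hspa5 and Syvn1.

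In LDC females the ATF4-type genes did not move as a block. Their mean log2 signals ran from 5.66 (Psat1) to 13.14 (Cebpb), and most were dimmer than every chaperone. Those of the chaperones ran from 11.01 (Dnajb11) to 14.46 (Hsp90b1). The 2 roles are therefore not read with equal precision, and the even split of the ATF4-type genes is the less certain. Sesn2, a stress-induced inhibitor of mTORC1 signalling, read 312, 321 and 436 in LDC females, against 159, 186 and 61.1 in control females (log2 difference 1.53, SE 0.48, adjusted p = 0.322). Ddit4, another mTORC1 inhibitor, read 629, 657 and 842 in LDC females, against 551, 459 and 474 in control females (0.51, adjusted p = 0.467). Asns, asparagine synthetase, lay the other way, at 67.9, 47.1 and 28.9 in LDC females against 127, 76.1 and 162 in control females (-1.36, SE 0.49, adjusted p = 0.417).

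Each of those 3 genes had groups that did not overlap in females, but the Asns signals sat near the filter level of 48.6 and its second probe set differed by 0.10. The second Sesn2 probe set gave -0.05, so the direction was not shared between probe sets there either. Atf4 itself, the transcription factor of the arm, differed by -0.06, with a 95% interval from -0.32 to 0.20. Ddit3, which encodes the pro-apoptotic factor CHOP, differed by 0.45, and the other 9 ATF4-type genes had adjusted p between 0.512 and 0.984.

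In males limma called 0 of the 37 members, where it called 0.278% of all probe sets. At an unadjusted p under 0.05, 1 member was higher and 7 were lower, where 5.16% of all probe sets were higher and 5.08% lower. The chaperones lay on the opposite side from the females: 11 of 14 had a lower mean in LDC males, with a median difference of -0.20, against 0.00 over all probe sets. The ATF4-type median was -0.04, 7 higher and 7 lower.

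That chaperone median rested in part on 1 array. Control male 3 was the highest of the 6 male arrays for 13 of 14 chaperones, and without it the median was -0.04, with 6 genes higher and 8 lower. Without LDC male 1, which was high for Creld2 and Manf, the median was -0.35, with 1 higher and 13 lower, and without LDC male 3 it was -0.11, with 2 higher and 12 lower. By array, Creld2 read 4679, 1639 and 2185 in LDC males, against 2094, 2129 and 5144 in control males, so each group held 1 array well above its other two. Manf had the same form, with 8702, 5219 and 5716 in LDC males against 6953, 6399 and 11016 in control males.

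The 3 chaperones with the smallest p in males were Calr, Pdia6 and Dnajb11. Calr read 17477, 15537 and 14556 in LDC males, against 17989, 18121 and 19526 in control males, and was the 1 chaperone whose groups did not overlap (log2 difference -0.23, SE 0.09, adjusted p = 0.401). Pdia6, a disulfide isomerase, read 5914, 5263 and 4569 in LDC males, against 5755, 6603 and 7711 in control males (-0.35, adjusted p = 0.498). Dnajb11, an ER co-chaperone, read 2443, 1765 and 1616 in LDC males, against 2280, 2368 and 3531 in control males (-0.48, adjusted p = 0.503). In both, LDC male 1 reached into the range of the controls.

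Dnajb9 differed by -0.13 in males (SE 0.17, adjusted p = 0.856). Its signals of 4347, 3201 and 3646 in LDC males overlapped those of 3848, 3687 and 4674 in control males. The 95% interval ran from -0.48 to 0.23.

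Outside the chaperones, Ern1 had the smallest p of all members in males. It read 1968, 2110 and 2069 in LDC males, against 2786, 2712 and 3253 in control males, with no overlap (log2 difference -0.51, SE 0.12, adjusted p = 0.124). The other 3 probe sets of Ern1 gave differences from -0.72 to 0.45. Sec61b (-0.24) was also wholly below its controls, Xbp1 differed by -0.33 (adjusted p = 0.46), Eif2ak3 by -0.19, Herpud1 by 0.05 and Atf6 by 0.12. Over all probe sets, 7.92% had all 3 LDC males below the controls and 8.62% had them all above, while 4 of the 37 members were wholly below and 2 wholly above.

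Those wholly above in males were Sesn2 and Cebpb. Sesn2 read 406, 442 and 369 in LDC males, against 245, 161 and 56.9 in control males (log2 difference 1.63, SE 0.48, adjusted p = 0.229). Its second probe set gave 0.24. Atf5, a transcription factor whose mRNA is translated in the same way as that of Atf4, read 3195, 3832 and 2815 in LDC males, against 3713, 4686 and 5674 in control males (-0.51, SE 0.18, adjusted p = 0.352).

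Nupr1, a stress-induced chromatin protein, read 11.5, 5.68 and 133 in LDC males, against 100.4, 71.8 and 116 in control males. The signals of LDC males 1 and 2 lay under the filter level, so the log2 difference of -2.20 (SE 0.90, adjusted p = 0.42) is mostly a reading of dim spots. Chac1, a glutathione-degrading enzyme, read 353, 610.1 and 244 in LDC males, against 407, 869 and 789 in control males (-0.80, adjusted p = 0.488). Phgdh, the first enzyme of serine synthesis, was wholly below its controls, at 136 to 317 in LDC males and 322 to 458 in control males (-0.91, adjusted p = 0.554), and its other 2 probe sets gave -0.14 and 0.35.

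**Figure D2:**
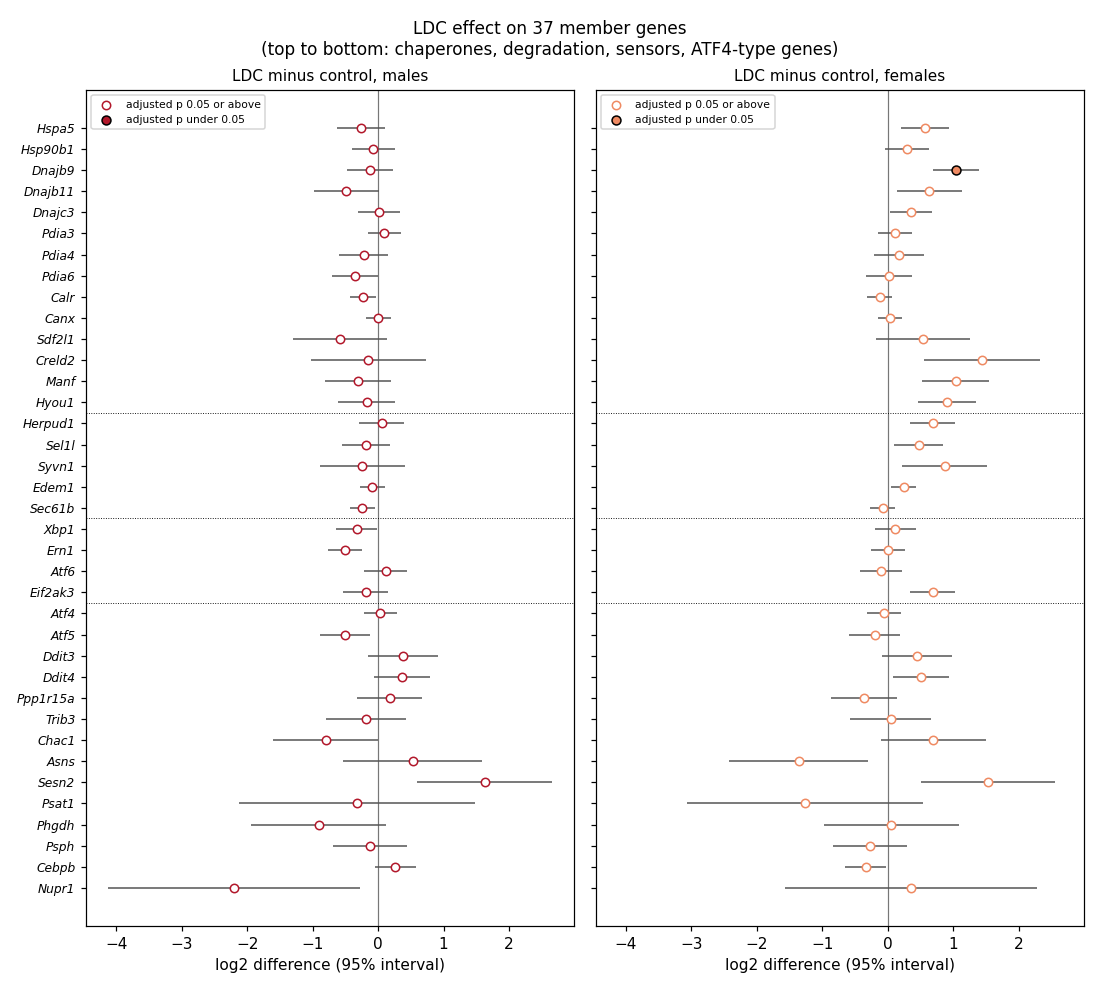
Log2 difference, LDC minus control, of each of the 37 genes in males (left) and females (right), with 95% intervals from limma, filled where the adjusted p is under 0.05. In females 13 of 14 chaperones lie above 0 with Dnajb9 filled, and in males 11 of 14 lie below 0 with none filled.

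Whether the LDC effect differed between the sexes was tested directly, as the effect in males minus that in females. No member was called, where 0.178% of all probe sets were. On the chosen probe sets the difference was negative for all 14 chaperones and all 5 degradation genes. Their medians were -0.62 and -0.63, against -0.01 over all probe sets. For the ATF4-type genes the difference was split 7 to 7, with a median of 0.01. Other probe sets of the members had the sign of the chosen one in 29 of 39 cases. Both others of Canx gave small positive differences (0.02 and 0.05). At an unadjusted p under 0.05 there were 15 members with a negative and 2 with a positive difference, where 4.91% of probe sets were negative and 5.34% positive.

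Dnajb9 came closest, with a difference of -1.18 (SE 0.23, adjusted p = 0.0667), and without LDC female 2 its adjusted p was 0.0436. Manf followed at -1.34 (SE 0.34, adjusted p = 0.168), then Eif2ak3 at -0.87 (adjusted p = 0.192), Hyou1 at -1.08 (adjusted p = 0.196) and Hspa5 at -0.84 (adjusted p = 0.241). The other 2 probe sets of Hyou1 gave -1.25 and 0.12, and those of Hspa5 gave -0.88 and -0.06. The ATF4-type genes with the smallest p pointed in both directions. They were Cebpb at 0.60 (adjusted p = 0.349), Chac1 at -1.50 (adjusted p = 0.36) and Asns at 1.89 (adjusted p = 0.378).

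Averaged over both sexes, LDC called no member, where 0.0444% of all probe sets were called, and at an unadjusted p under 0.05 there were 9 members higher and 4 lower, where 5.06% of all probe sets were higher and 4.22% lower. Sesn2 came closest (mean log2 difference 1.58, SE 0.34, adjusted p = 0.115), being wholly above the controls in either sex. Its second probe set gave 0.098 (adjusted p = 0.943), and control male 3 (56.9) and control female 3 (61.1) lay near the filter level of 48.6. Dnajb9 (0.46, adjusted p = 0.193), Herpud1 (0.37, adjusted p = 0.284) and Ddit4 (0.44, adjusted p = 0.317) followed. The chaperone median was 0.11 and the ATF4-type median was -0.08.

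The array means show how the roles varied between mice. For each role, every gene's log2 signal was set against its own mean over the 12 arrays and averaged. The chaperones were at 0.21, -0.23 and -0.24 in LDC males and at -0.11, -0.02 and 0.48 in control males. In LDC females they were at 0.19, 0.09 and 0.43, and in control females at -0.50, -0.34 and 0.03. All 3 LDC females thus lay above all 3 control females, while the male groups overlapped. LDC female 3 was the highest female array for 10 of 14 chaperones and control female 3 for the other 4. Control female 1 was the lowest for 10, control female 2 for 3 and LDC female 2 for 1. Without LDC female 3 the chaperone median in females was 0.31 (12 higher, 2 lower), and without control female 1 it was 0.31 as well (10 higher, 4 lower).

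The mean of the ATF4-type genes varied less between arrays than that of the chaperones. It was at -0.03 to 0.16 in LDC males, 0.16 to 0.20 in control males, -0.25 to -0.02 in LDC females and -0.23 to -0.01 in control females. LDC females and control females overlapped, and every male control lay above every female array. Single ATF4-type genes spread more widely. Their LDC differences in males ran from -2.20 to 1.63, against -0.58 to 0.095 for the chaperones.

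**Figure D3:**
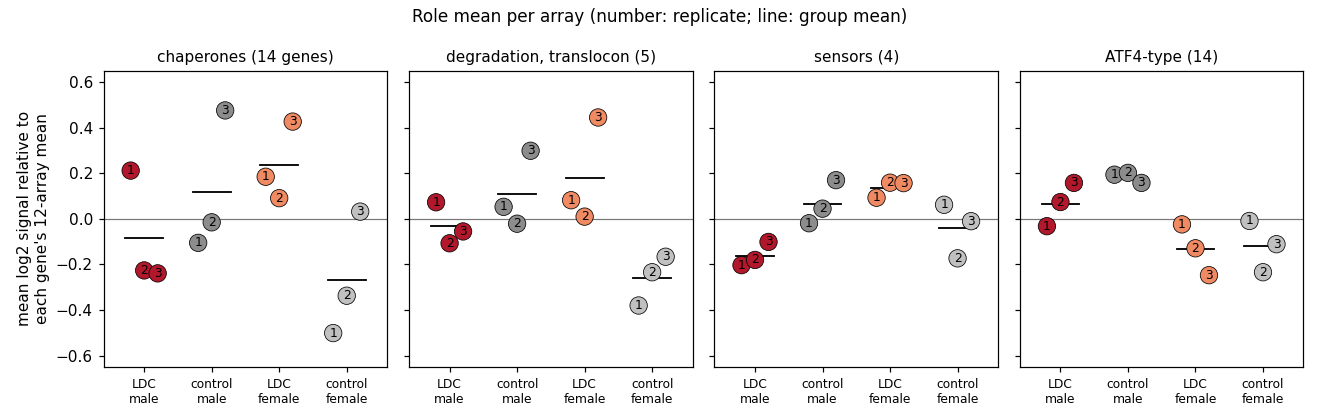
Mean log2 signal of each role on each array, relative to every gene's mean over the 12 arrays (numbers are replicates, lines group means). The chaperones of the 3 LDC females lie above those of the control females, control male 3 lies at 0.48 among the males, and the ATF4-type means stay between -0.25 and 0.20.

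Other transcripts moved with these comparisons. Plasma cells, which secrete antibody and carry much ER, had 7 of 8 listed markers matched, none at 0 and Tnfrsf17 below the filter. Their summed signal was 9731 to 10904 in LDC females against 14406 to 21026 in control females, and 11249 to 12254 in LDC males against 7799 to 9894 in control males. Of the 6 tested, 1 was higher and 5 were lower in LDC females, and 5 were higher and 1 was lower in LDC males. The gap in females remained whichever gene was left out of the sum, a check chosen after the sums were seen. The gap in males rested on Sdc1, which hepatocytes also make, and without it the sums were 4605 to 6475 in LDC males and 3808 to 5168.0 in control males and overlapped. Jchain and Ighm fell in LDC females (log2 differences -2.36 and -3.57, adjusted p = 0.0026 and 0.00347).

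Neutrophil markers (8 of 8 matched, 6 tested) summed to 695 to 1026 in LDC females against 3454 to 6479 in control females, and to 3315 to 3790 in LDC males against 1229 to 1660 in control males. Macrophage markers (8 of 8) summed to 6564 to 29763 in LDC females against 14701 to 40255 in control females, and to 17320 to 25079 in LDC males against 12096 to 13561 in control males. Mt1 and Mt2, metallothioneins that bind cadmium and zinc, summed to 3701 to 5344 in LDC females against 26993 to 44464 in control females, and to 41147 to 58111 in LDC males against 14781 to 33753 in control males. The neutrophil and metallothionein sums did not overlap in either sex, whichever gene was left out, and were lower in LDC females and higher in LDC males, while the macrophage sums overlapped in females. All 8 macrophage markers nevertheless had a lower mean log2 signal in LDC females (median difference -0.78) and a higher one in LDC males (median 0.71), with none called.

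Clock genes (11 of 12 tested) summed to 11911 to 18225 in LDC females against 8278 to 13577 in control females. In males they summed to 22678 to 26023 with LDC against 15157 to 20925 in controls, so only the female sums overlapped. Gene by gene, 9 of the 11 tested were higher in LDC females, with a median log2 difference of 0.64. Of these, 5 had an unadjusted p under 0.05, where 4.69% of all probe sets reached it higher. In LDC males 8 were higher and 3 lower, with a median of 0.44. Without Nr1d2 the clock sums overlapped in males as well. Cry1 rose in LDC males (log2 difference 1.41, adjusted p = 0.0448), while Nr1d1 in females, at 2.03, was not called (adjusted p = 0.214). Glucocorticoid response genes (8 of 8) split 4 higher and 4 lower in LDC females (median log2 difference -0.04), and their sums overlapped in males. In females they summed to 30583 to 37980 in LDC mice against 38180 to 41483 in control mice, a gap that closed without Lcn2, Sgk1 or Dusp1. Without Lcn2, also known as an acute-phase gene, the sums were 28700.2 to 37275 in LDC females and 25586 to 38935 in control females. Acinar cell markers (6 of 8 matched, 3 below the filter) summed to 1231.5 to 1433 in LDC females against 981 to 1750.2 in control females, and to 1131 to 1799 in LDC males against 2223 to 2633 in control males, a gap that closed without Cela1. The part of these transcripts in the chaperone result was not tested.

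A second question was how the members differed between males and females, first in control mice. There 6 members were higher and 1 was lower in males, where 3.59% of all probe sets were called higher and 4.14% lower. Those higher were Chac1 (4.01-fold), Asns (3.31-fold), Herpud1 (2.39-fold), Hyou1 (1.77-fold), Dnajb11 (1.76-fold) and Cebpb (1.64-fold). Atf4 was lower, at 0.564 of the female level. The chaperone median was 0.33, with 13 of 14 higher in males, against -0.02 over all probe sets, and the ATF4-type median was 0.02. Without control male 3 the chaperone median was 0.16 (12 higher, 2 lower), and without control female 1 it was 0.20 (12 higher, 2 lower).

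Herpud1 in control mice read 21003, 19534 and 15625 in males, against 7466, 9136 and 6854 in females (log2 difference 1.26, SE 0.16, adjusted p = 0.000245). Chac1 read 407, 869 and 789 in males, against 132, 168 and 195 in females (2.004, SE 0.38, adjusted p = 0.00456). Asns read 256, 521 and 424 in males, against 127, 76.1 and 162 in females (1.72, SE 0.49, adjusted p = 0.0467), and its second probe set was called as well (2.62, adjusted p = 0.00726). In all 3 genes, picked by their calls on the same arrays, the lowest male lay above the highest female.

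Atf4 ran the other way from Asns and Chac1, which are known as its targets. Its signal was 2782, 2696 and 2435 in control males, against 4408, 5119 and 4502 in control females (log2 difference -0.83, SE 0.12, adjusted p = 0.00071). The second probe set of Atf4 gave -0.64 and was not called (adjusted p = 0.0723). Cebpb, a liver-enriched transcription factor of the C/EBP family, read 12351, 12344 and 10522 in control males, against 8609.7, 7478 and 5654 in control females (0.71, SE 0.15, adjusted p = 0.00815), and its second probe set gave 0.99.

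Hyou1 read 2516, 2619.8 and 4089 in control males, against 1432, 1424 and 2382 in control females (0.82, SE 0.20, adjusted p = 0.023), and of its other 2 probe sets 1 gave 0.89 and was called (adjusted p = 0.0183) and 1 gave 0.17 and was not. Dnajb11 read 2280, 2368 and 3531 in control males, against 1216, 1264 and 2270.0 in control females (0.82, SE 0.23, adjusted p = 0.0454). In both the third replicate was the highest of either sex, and the highest female and the lowest male were close. Creld2 differed by 1.13 and was not called (adjusted p = 0.118).

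Herpud1, Atf4, Chac1 and Cebpb stayed called whichever single array was left out. Hyou1 was not called without control female 1, control female 2 or control male 3 (highest adjusted p 0.0962). Asns was called in 5 of the 12 fits that each left out an array, and Dnajb11 in 2 of 12, those without control female 3 and without LDC male 1 (highest adjusted p 0.163 and 0.175).

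In LDC mice 3 members were higher and 6 were lower in males, where 3.0% of all probe sets were called higher and 3.29% lower. Asns, Cebpb (2.49-fold) and Herpud1 (1.54-fold) were higher in males. No fold is given for Asns, because LDC females 2 and 3 lay under the filter level of 48.6. Dnajb9 (0.427 of the female level), Eif2ak3 (0.472), Manf (0.533), Atf5 (0.579), Atf4 (0.603) and Ern1 (0.72) were lower. The chaperone median was -0.28, with 11 of 14 lower in LDC males, and the ATF4-type median was 0.29, against -0.02 over all probe sets. The chaperone median was -0.18 without LDC female 3 (4 higher, 10 lower) and without LDC male 3 (5 higher, 9 lower), and -0.19 without LDC male 2 (4 higher, 10 lower). The sex comparisons use the same arrays as the LDC comparisons above and are not independent of them.

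Dnajb9 differed by -1.23 in LDC mice (SE 0.17, adjusted p = 0.000361), against -0.05 in control mice (adjusted p = 0.903). Manf read 8702, 5219 and 5716 in LDC males and 11795, 10743 and 13518 in LDC females (-0.91, SE 0.24, adjusted p = 0.0348). Eif2ak3 read 448, 517 and 596 in LDC males, against 1014, 984 and 1316 in LDC females (-1.08, SE 0.16, adjusted p = 0.000876). Ern1 read 1968, 2110 and 2069 in LDC males, against 3047, 2834 and 2662 in LDC females (-0.47, SE 0.12, adjusted p = 0.0293), though the other probe sets of Ern1 gave -0.33 to -0.02 and were not called. Hspa5 differed by -0.48 and was not called (adjusted p = 0.123).

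Among the ATF4-type genes, Asns read 654, 1040.4 and 249 in LDC males, against 67.9, 47.1 and 28.9 in LDC females (log2 difference 3.61, SE 0.49, adjusted p = 0.000404), a size that rests on dim female signals. Its second probe set gave 3.48. Cebpb read 14025, 14931 and 13228 in LDC males, against 5405, 4878 and 6827 in LDC females (1.31, SE 0.15, adjusted p = 7.75e-05). Atf4 read 2476, 2892 and 2748 in LDC males, against 4355, 5302 and 3887 in LDC females (-0.73, SE 0.12, adjusted p = 0.00167), while its second probe set gave -0.26 and was not called (adjusted p = 0.547). Atf5 read 3195, 3832 and 2815 in LDC males, against 5244, 5635 and 6000.4 in LDC females (-0.79, SE 0.18, adjusted p = 0.017). Herpud1 read 19694, 19581 and 18545 in LDC males, against 10828, 10744 and 16765 in LDC females (0.62, SE 0.16, adjusted p = 0.0316).

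All 9 of these genes had groups that did not overlap. They were picked by adjusted p on the same arrays, so nothing further is read from that. Dnajb9, Eif2ak3, Atf4, Asns and Cebpb stayed called whichever array was left out. Manf, Herpud1 and Ern1 were each called in 7 of the 12 fits and Atf5 in 8, with calls ending only on removal of an LDC array and adjusted p of at most 0.145. On the chosen probe sets Atf4, Herpud1, Asns and Cebpb were thus called in the same direction with and without LDC, whereas the chaperone calls in control mice (Hyou1, Dnajb11) and in LDC mice (Dnajb9, Manf) had opposite signs. The test of that change is the male minus female difference of the LDC effects given above, in which none of these genes was called.

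**Figure D4:**
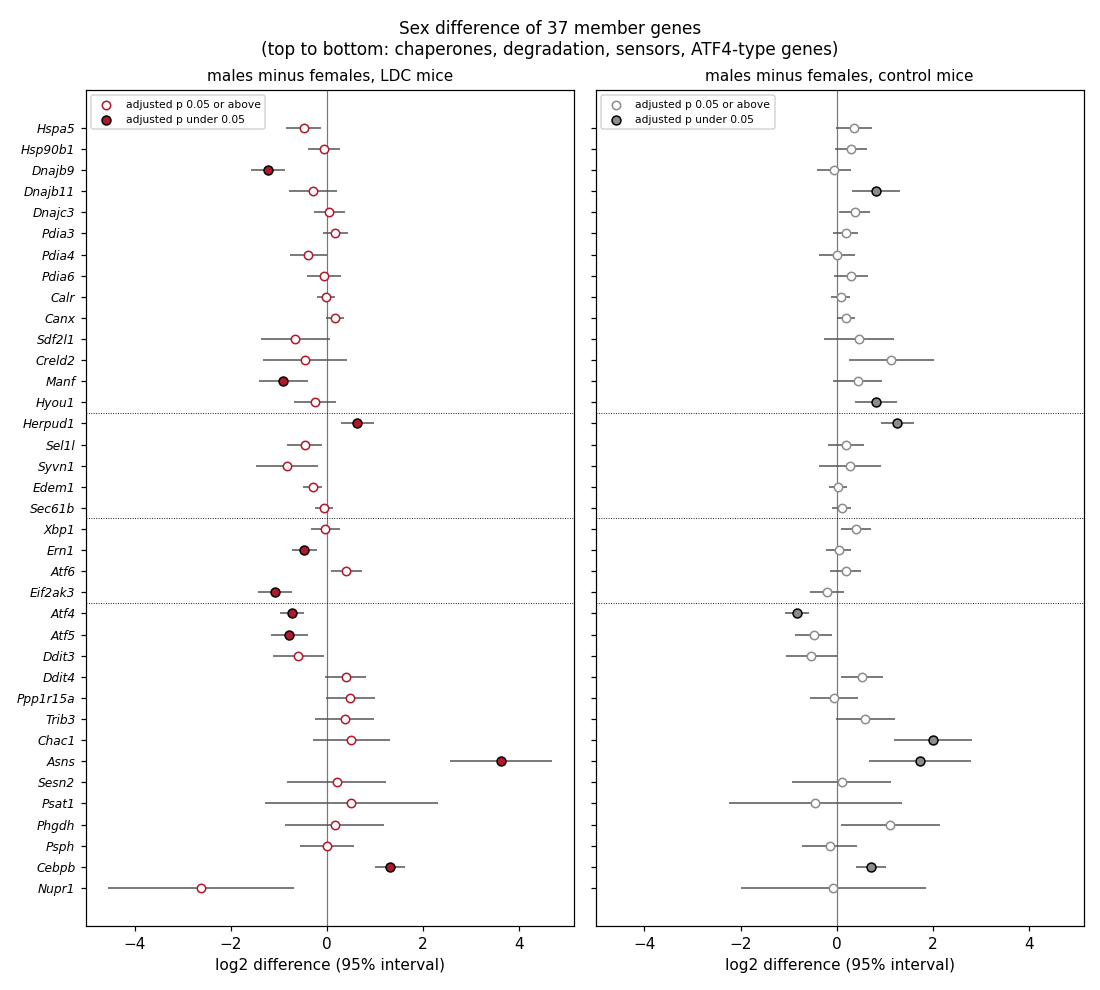
Log2 difference, males minus females, of each of the 37 genes in LDC mice (left) and control mice (right), with 95% intervals from limma, filled where the adjusted p is under 0.05. Asns and Cebpb lie above 0 and Atf4 below 0 on both sides, and 11 of 14 chaperones lie below 0 in LDC mice against 1 of 14 in control mice.

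**Figure D5:**
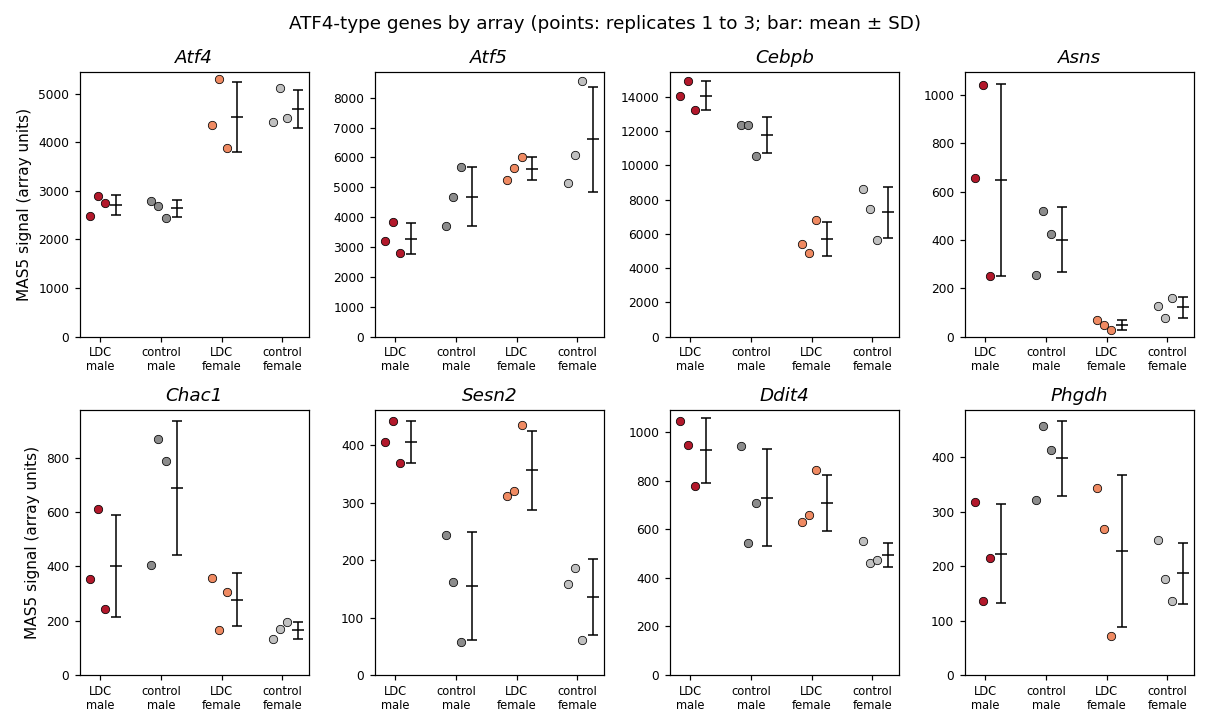
MAS5 signal (linear, array units) of 8 ATF4-type genes on each of the 12 arrays, with group means ± SD (n = 3). Atf4 is lower and Cebpb and Asns are higher in all male arrays than in all female arrays, and Sesn2 stands above its controls on all LDC arrays of either sex.

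The remaining members were followed by their ranges. Over the 12 arrays Hsp90b1, the ER paralogue of HSP90, ran from 18172 to 30696, Dnajc3, an inhibitor of PERK, from 5210.2 to 9433, Pdia3 from 10339.9 to 16802, Pdia4 from 2969 to 5545 and Canx from 11034 to 14793. Sdf2l1, a component of ER chaperone complexes, ran from 1246 to 4377, its highest value in control male 3, and Xbp1 ran from 11169.5 to 19763. Among the ATF4-type genes, Ppp1r15a, which directs dephosphorylation of eIF2 alpha, ran from 261 to 535, Trib3, a pseudokinase that restrains ATF4, from 145 to 394, Psph, the last enzyme of serine synthesis, from 262 to 491, and Psat1, the enzyme before it, from 17.3 to 138. Sel1l ran from 2797 to 5438, Syvn1 from 1502 to 5105, Edem1 from 3551 to 4643, Sec61b from 6283 to 8020.2, Atf6 from 1476 to 2559 and Ddit3 from 231 to 719.9. On the chosen probe sets and in the fit described above, none of these genes was called in any contrast. The second probe set of Edem1 was called lower in males among LDC mice (-0.48, adjusted p = 0.0195), against -0.30 on the chosen one (adjusted p = 0.0585). In that comparison Edem1 was called under 7 alternatives, among them the mean of all its probe sets. Of the other 4 probe sets of Dnajc3, 2 were called higher in males among control mice (0.60 and 0.65, adjusted p = 0.0399 and 0.0469). Syvn1 was called lower in males among LDC mice with a replicate block and without control male 3. Without control male 1 Dnajc3, Hsp90b1 and Xbp1 were called higher in males among control mice. In all, 3 members (Asns, Psat1 and Nupr1) had at least 1 array under the filter level.

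Other tested probe sets existed for 23 members, 39 in all. They had the sign of the chosen probe set in 29 of 39 cases for LDC in females, 26 of 39 for LDC in males, 36 of 39 for sex in LDC mice and 32 of 39 for sex in control mice. Among the chosen probe sets, 6 are of the types whose probes can also match other transcripts (Canx, Hyou1, Syvn1, Xbp1, Psat1 and Phgdh), so their signals are less certain to come from that gene alone.

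Other genes of the same pathways, listed separately from the members, were counted to place them. LDC called none of the 80 tested in either sex, where 0.278% of all probe sets were called in males and 0.122% in females. At such shares a count of 0 says little about these genes. At an unadjusted p under 0.05, 4.69% of all probe sets were higher and 4.33% lower in LDC females. In LDC males 5.16% were higher and 5.08% lower. Of 27 other ER folding and secretion genes, 17 were higher in LDC females (8 at an unadjusted p under 0.05, none lower) and 20 were lower in LDC males (4 at an unadjusted p under 0.05, none higher). Ero1b, an ER oxidase that renews disulfide bonds, differed by 0.68 in females (adjusted p = 0.182), and Hspa13 by 0.72 (adjusted p = 0.201). In males Ganab, a glucosidase of glycoprotein folding, differed by -0.33 (adjusted p = 0.354) and Spcs3, a subunit of the signal peptidase, by -0.28 (adjusted p = 0.371).

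Of 13 other degradation genes, 9 were higher in LDC females (3 at an unadjusted p under 0.05, with 1 lower) and 11 lower in LDC males (none at that level). The smallest p belonged to Selenos (0.34, adjusted p = 0.404) and Edem3 (0.41, adjusted p = 0.472) in females, and to Vcp (-0.18, adjusted p = 0.513) and Derl2 (-0.17, adjusted p = 0.544) in males. Of 11 other sensors and ER stress factors, Wfs1 (0.54, adjusted p = 0.512) and Creb3l2 (0.38, adjusted p = 0.533) led in females, and Creb3l2 (-0.56, adjusted p = 0.255) and Ppp1r15b (0.19, adjusted p = 0.491) in males.

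Of 29 other amino acid response genes, 15 were higher and 14 lower in LDC females, and 13 were higher and 16 lower in LDC males, where 2 higher and 4 lower reached an unadjusted p under 0.05. Iars, a tRNA synthetase (0.35, adjusted p = 0.504), and Cth, of cysteine synthesis (0.32, adjusted p = 0.521), had the smallest p in females. In males it was the tRNA synthetases Tars (-0.63, adjusted p = 0.117) and Gars (-0.41, adjusted p = 0.212).

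Between the sexes 9 of the 80 were called in control mice (11.2%), where 7.73% of all probe sets were, and 7 of 80 in LDC mice (8.75%), where 6.29% were. These shares were not tested against those of all probe sets, and nothing is read from them. In control mice Ero1b (0.99), Edem2 (0.54), Edem3 (0.61), Creb3l3 (0.99), Eif4ebp1 (0.45), Gpt2 (0.53) and Nars (0.49) were higher in males, and Vldlr (-2.75) and Slc7a1 (-1.64) were lower. In LDC mice Creb3l3 (0.83), Eif4ebp1 (0.46) and Gpt2 (0.61) were higher in males, and Txndc11 (-0.72), Creb3l2 (-1.08), Vldlr (-2.79) and Tars (-0.62) were lower. Creb3l3, a liver transcription factor held in the ER membrane, Gpt2, an alanine aminotransferase, and Vldlr, the very low density lipoprotein receptor, thus differed between the sexes in the same direction with and without LDC.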

How the data were processed

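Liver RNA of 12 mice was hybridised to 12 Affymetrix Mouse Genome 430 2.0 arrays, 3 per group of sex and exposure. The authors deposited linear signal intensities, made with the MAS5 algorithm in GeneSpring, and no detection calls. The trimmed mean of every array was 500.0. Depth does not apply to arrays, and their number limits the precision. All value columns were mapped to a sample by title (0 were left out). Symbols came from the platform table (2016), updated by gene ID.

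Intensities were log2 transformed. Control probe sets (64) and those with a mean under the 40th percentile (signal 48.6) were left out. limma 3.58.1 in R 4.3.3 fitted 4 group means to 27022 probe sets (8 residual and 6.35 prior degrees of freedom, eBayes with an intensity trend, two-sided). The script was tested on simulated data. Promoter windows were from RefSeq. Members, roles and gene lists were chosen with earlier results of these data known. Values in every array are given for each called member and for the 3 chaperones and 3 ATF4-type genes with the smallest p per contrast, while other pathway genes are named where called and otherwise the 2 with the smallest p per list and exposure comparison. The lists of hepatocyte, plasma cell, acinar cell, neutrophil, macrophage, clock, glucocorticoid and metallothionein genes were summed per array. Alternatives were other filters, normalizations, floors, variance models and probe sets, a replicate block, an ordinary t-test as the methods name for other data, and leaving out each array.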

Additional observations from a re-analysis of the deposited data

Results flagged for a closer look

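Of the members and the other pathway genes, 117 in all, 3 (2.56%) had all LDC males below all control males and all LDC females above all control females, a form shared by 0.685% of all 27022 probe sets. None had the reverse form, shared by 0.585%. The genes were listed with earlier results of these data known, so nothing is read from the share. None of the 3 was a member. Ero1b, the ER oxidase, had a male minus female difference of the LDC effects of -1.03 (SE 0.24, limma adjusted p = 0.144). Spcs3, of the signal peptidase, had -0.585 (SE 0.15, adjusted p = 0.171), and Creb3l2, a transcription factor held in the ER membrane, had -0.94 (SE 0.24, adjusted p = 0.177). The differences were tested and none passed the threshold. The Ero1b signal was 3343, 3236 and 3176 in LDC males against 3578, 3691 and 5389 in control males, and 3278, 2986 and 3791 in LDC females against 1894, 1759.5 and 2708 in control females.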

How the results depend on the processing

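No alternative reversed the direction of a called member. A role median counted as moved when it shifted by more than the standard error of a difference between 2 group means. That limit was 0.21 for the chaperones and 0.076 for the ATF4-type genes, and no chaperone median passed it. For chaperones it is larger than the size of the median for LDC in males (-0.20), so it cannot show whether that median is stable. Dnajb9 was no longer called in LDC females, leaving 0 members, with each sex fitted on its own arrays, with eBayes without a trend or with an ordinary t-test. The t-test called 0 members for LDC in males and in either sex comparison too, so its 0 in males adds nothing to that of limma. For sex, eBayes without a trend called 3 in control mice and 5 in LDC mice, against 7 and 9. The share of all probe sets called in each alternative fit is not given, so these counts and those below are not read as results about the members. The ATF4-type median moved with a filter at the 60th percentile (0.11 for LDC in males, 0.32 for sex in control mice), with median centring (0.20 for sex in LDC mice) and with the mean of all probe sets of a gene (0.15 for LDC in males, -0.16 for LDC in females, -0.062 for sex in control mice). Leaving out 1 array at a time gave 0 to 1 members called for LDC in females and for the difference between the sexes, 4 to 9 for sex in control mice and 5 to 10 for sex in LDC mice. The ATF4-type medians then ran from -0.044 to 0.13 (LDC in males), -0.19 to 0.037 (LDC in females), -0.069 to 0.32 (sex in control mice) and 0.21 to 0.37 (sex in LDC mice). The fewest calls in control mice (4) came without control female 1, control female 2 or control male 3, and in LDC mice (5) without LDC female 2. The cause was not tested. Same-numbered arrays deviated together weakly at most (r from -0.03 to 0.06 over 18 pairs, none above 0.1). However, 8 of 12 arrays correlated best with an array of their own number, so these values do not settle whether the numbers pair the mice. With the replicate block 1 member was called for LDC in females, 6 for sex in control mice and 9 for sex in LDC mice, where Asns in control mice (adjusted p 0.0592) and Herpud1 in LDC mice (adjusted p 0.0538) were no longer called and Syvn1 in LDC mice was (adjusted p 0.0484). Over the calls of single members, 43 of 204 values with an array left out and 38 of 205 under the other alternatives lost the threshold. Low signals limit Asns, Psat1 and Nupr1.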
